A study of Saccharomyces cerevisiae with 18 samples.

Results

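Of the 7126 genes in the count table, 58 were followed here because their names stand on a list of genes of the spindle, the spindle pole and the kinetochore, the class of function for which targets of the transcription factor Hcm1 are known. The rule is a list of names and uses no measured value, though the list was drawn up with earlier results of these data known. The list held 5 kinesin motors, 5 other microtubule-associated proteins, 8 spindle pole body genes, 3 genes of the gamma-tubulin complex, 3 tubulins, 3 genes of the Ndc80 complex, 4 of the MIND complex, 10 of the Dam1 complex, 10 of the inner kinetochore, 4 of the chromosomal passenger complex and Mps1, and 3 of the dynein pathway. A list of 96 Hcm1 targets that the study used for its gene set analysis held 15 of the 58: *CIN8*, *KIP1*, *KIP3*, *KAR3*, *SPC97*, *SPC98*, *DSN1*, *NSL1*, *DAM1*, *ASK1*, *NUD1*, *MPS1*, *TUB1*, *TUB2* and *NUM1*. All 58 passed the filter on low counts, so none was left out of the tests.

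Polyadenylated RNA was measured in 3 replicate cultures of each of 6 groups: *hcm1-3N* in LiCl, *hcm1-3N* in control medium, *hcm1-8E* in LiCl, *hcm1-8E* in control medium, WT in LiCl and WT in control medium. All strains were haploid MATa cells of the BY4741 background with the alleles his3Δ1 ura3Δ0 leu2Δ0 lys2Δ0 and a GFP gene under the TEF promoter on chromosome VI. All also carried a galactose-driven, 3HA-tagged *HCM1* at its own locus, which dextrose shuts off, so Hcm1 came from a centromeric *URA3* plasmid with the *HCM1* promoter and a 3V5 tag on the encoded protein, in its WT, *hcm1-3N* or *hcm1-8E* form. In *hcm1-3N* the protein has alanines in a phosphorylated degradation signal, and in *hcm1-8E* the cyclin-dependent kinase sites of the activation domain are replaced by glutamic acids. Cultures grew for 40 hours in dextrose medium without uracil, with or without 150 mM LiCl, were diluted at 24 hours, and were in logarithmic phase at harvest. They were not synchronized, so a gene of 1 cell cycle phase was read over cells of all phases. From the counts alone, fewer cells in that phase cannot be told apart from less RNA per cell. The study measured DNA content of its strains in both media by flow cytometry. It reports no significant difference between samples in the share of S-phase cells.

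The mitotic spindle is built from tubulin polymers nucleated at the spindle pole bodies by the gamma-tubulin complex, pushed and pulled by kinesin motors and positioned in the bud neck by dynein. Kinetochores, layered complexes assembled on centromeres that carry the histone variant Cse4, attach each chromosome to microtubules, and the passenger complex and Mps1 correct and monitor these attachments. In budding yeast many of these genes are transcribed in S phase, and Hcm1, a forkhead factor phosphorylated by cyclin-dependent kinase and dephosphorylated by calcineurin, activates part of them there.

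Forkhead factors bind sequences with the core AAACA. The 250 bases before the start codon were read from the R64 genome for all 58 genes, and searched on both strands, with overlaps allowed, for the motif AAACAA, for the motif TAAACA and for the longer TAAACAA, which contains both. AAACAA lay in 46 of the 58 windows (79.3%) against 41.1% of the 6001 windows of all protein-coding genes. TAAACA lay in 31 (53.4%) against 25.2%, and TAAACAA in 25 (43.1%) against 11.48%. Base composition was alike, at 65.01% A or T in the windows of the 58 genes and 64.78% in all windows. Of the 15 listed targets, 14 had AAACAA and 10 had TAAACAA, and of the 43 other members 32 and 15 had them. These matches are a description of the letters and not sites of binding. The stretches below come from RefSeq R64, run 5′ to 3′ along the coding strand, and carry the motif matches in capitals (a match on the other strand reads TTGTTT or, for the second motif, TGTTTA). Positions count back from the base before the start codon, which is -1. The first 8 belong to genes whose LiCl values are given below and hold TAAACAA.
CIN8 (bases -214 to -171, chrV:39708-39751, minus strand): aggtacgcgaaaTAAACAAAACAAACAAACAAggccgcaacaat
SPC98 (bases -148 to -99, chrXIV:387079-387128, plus strand): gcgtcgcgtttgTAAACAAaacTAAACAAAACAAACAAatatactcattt
SPC97 (bases -173 to -143, chrVIII:448162-448192, plus strand): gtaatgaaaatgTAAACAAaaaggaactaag
DSN1 (bases -137 to -94, chrIX:375294-375337, plus strand): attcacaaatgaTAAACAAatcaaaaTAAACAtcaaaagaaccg
NSL1 (bases -141 to -111, chrXVI:106031-106061, plus strand): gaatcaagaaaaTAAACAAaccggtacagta
MTW1 (bases -113 to -83, chrI:79605-79635, plus strand): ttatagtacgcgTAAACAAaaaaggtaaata
SPC110 (bases -121 to -84, chrIV:1185986-1186023, plus strand): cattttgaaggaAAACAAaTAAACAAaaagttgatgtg
DYN1 (bases -119 to -89, chrXI:548014-548044, minus strand): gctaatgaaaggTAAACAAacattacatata
The next 3, of genes that also take part in the results below, hold AAACAA more than once but not TAAACAA in the stretch shown. *KAR3* does hold TAAACAA on the other strand elsewhere in its window, within bases -74 to -44.
KAR3 (bases -250 to -203, chrXVI:818126-818173, minus strand): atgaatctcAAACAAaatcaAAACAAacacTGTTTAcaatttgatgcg
CSE4 (bases -151 to -111, chrXI:346875-346915, minus strand): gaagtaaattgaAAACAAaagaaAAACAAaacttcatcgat
TUB2 (bases -135 to -91, chrVI:56201-56245, plus strand): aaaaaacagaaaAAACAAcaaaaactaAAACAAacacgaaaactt
In *TUB3*, the second alpha-tubulin gene, neither AAACAA nor TAAACAA was found in the window, and the single TAAACA began 60 bases before the start codon.

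TPM, the deposited measure that divides each count by gene length and scales each library to the same total, allowed levels to be set side by side between genes. Over the 18 libraries the mean level of the 58 members had a median of 11.3 TPM. *TUB2*, the only beta-tubulin gene, stood highest with 339 TPM, followed by *TUB1* with 199 TPM and *TUB3* with 110 TPM, the alpha-tubulins. The Dam1 complex genes, whose products form the ring that couples kinetochores to microtubules, had a median of 25.6 TPM and reached 98.5 TPM in *HSK3*. Kinesin genes had a median of 5.21 TPM. At the low end stood *STU1* with 2.40 TPM, a microtubule rescue factor, and *IPL1* with 2.48 TPM, the Aurora kinase of the passenger complex. In all, 9 members averaged under 5 TPM and 7 averaged 50 TPM or more. Between libraries, levels are given below as CPM, the share of a library's counts on TMM-scaled library sizes, which are comparable between libraries and not between genes of different length.

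The 18 libraries held 18816441 to 21851012 counts, and the 58 genes together took 0.207% to 0.274% of a library. The lowest count of a member in any library was 52. *HCM1* itself was read at 217, 221 and 314 CPM in LiCl against 241, 242 and 249.97 CPM in control medium in *hcm1-3N*, at 163, 135 and 142 CPM against 220.3, 252 and 242 CPM in *hcm1-8E* and at 348, 471 and 378 CPM against 281, 293 and 324 CPM in WT. In LiCl *HCM1* was lower than in WT in *hcm1-3N* (log2 -0.67 ± 0.14, adjusted p = 0.0436) and in *hcm1-8E* (log2 -1.45 ± 0.14, adjusted p = 0.000382). *URA3*, the marker on the same plasmid, had 730.2, 1166 and 966 CPM in *hcm1-3N* and 536, 466 and 632 CPM in *hcm1-8E* against 1119, 1485 and 1355 CPM in WT in LiCl. It was lower than in WT in *hcm1-8E* (log2 -1.28 ± 0.16, adjusted p = 0.00472), and its value in *hcm1-3N* did not pass (log2 -0.47 ± 0.16, adjusted p = 0.269). The part of these levels in the member values was not tested. These counts do not separate the plasmid alleles or the tags. Genes of MATa cells summed to 1782 to 2671 CPM per library and genes of MATα cells to 44.4 to 95.8 CPM, and *LEU2* and *LYS2* had 0 counts in every library, both being deleted in this background. *HIS3*, with the allele his3Δ1, did have counts and passed the filter. By edgeR's test *HIS3* was lower in *hcm1-3N* than in WT in control medium (log2 -1.22 ± 0.13, adjusted p = 0.000656) and in LiCl (log2 -0.65 ± 0.13, adjusted p = 0.0293). For *hcm1-8E* over WT it passed in neither medium. The source of these *HIS3* counts was not tested. Libraries with replicate number 1 stood apart in every group. Replicate 1 was the highest of 3 for 30 to 42 of the 58 members, depending on the group, and its mean log2 level over 10 genes of stationary phase and stress was 3.95 to 5.44, against 5.503 to 6.70 in replicates 2 and 3. Same-numbered libraries of different groups deviated together (mean correlation 0.52), so calls that change with the replicate number as a block are also given, and some values without replicate 1. What the number stands for was not tested.

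LiCl raised part of the spindle and kinetochore genes in every strain and lowered few. By edgeR's quasi-likelihood test at an adjusted p under 0.05, 8 of the 58 members rose and 1 fell in *hcm1-3N*, where 5.16% of all 6239 genes tested rose and 5.18% fell (10.3% in all). In *hcm1-8E* 25 rose and 1 fell, with 17.1% and 12.5% of all genes (29.5% in all). In WT 17 rose and 4 fell, with 16.5% and 13.9% of all genes (30.4% in all). At an unadjusted p under 0.05 the genes past the threshold made up 30.8% of all in *hcm1-3N*, 40.9% in *hcm1-8E* and 41.6% in WT. The median log2 fold change of the 58, LiCl over control, was 0.21 in *hcm1-3N*, 0.35 in *hcm1-8E* and 0.25 in WT, against 0.01, 0.03 and 0.02 over all genes. *KAR3*, *SPC110*, *SPC72*, *NSL1*, *BIR1* and *DYN1* rose in all 3 strains (6 of 58, where 3.75% of all genes did), none fell in all 3 (3.4% of all genes), none moved in opposite directions past the test, and 26 passed in no strain (57.9% of all genes). The fold change was positive in all 3 strains for 37 members, where 35.4% of all genes were, and negative in all 3 for 8, where 32.3% were. Taken as pairs of the same replicate number, 21 members were higher in LiCl in 9 of 9 pairs, where 17.6% of all genes were, and *TUB3* and *IML3* were lower in 9 of 9, where 17.5% were.

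With the replicate block, 19 members rose and 2 fell in *hcm1-3N*, with 20.1% and 18% of all genes (38.1% in all). In *hcm1-8E* 32 rose and 6 fell, with 26.4% and 21.7% (48.1% in all). In WT 26 rose and 8 fell, with 26% and 23% (49% in all). All calls made without the block were also made with it. The *hcm1-3N* count of 9 was the least stable: it was 0 without control replicate 2 (2.42% of all genes), 1 without control replicate 3, LiCl replicate 1 or LiCl replicate 2 (3.39%, 3.81% and 3.15%), 24 without LiCl replicate 3 (20.1%), and 0 when only the 6 libraries compared were fitted. The WT count of 21 was 13 without LiCl replicate 1 (23.7% of all genes), and the *hcm1-8E* count of 26 was 16 when only its own 6 libraries were fitted. For fits of only the libraries compared, no share of all genes is at hand. Those counts cannot be read as a drop among the members alone.

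**Figure D1:**
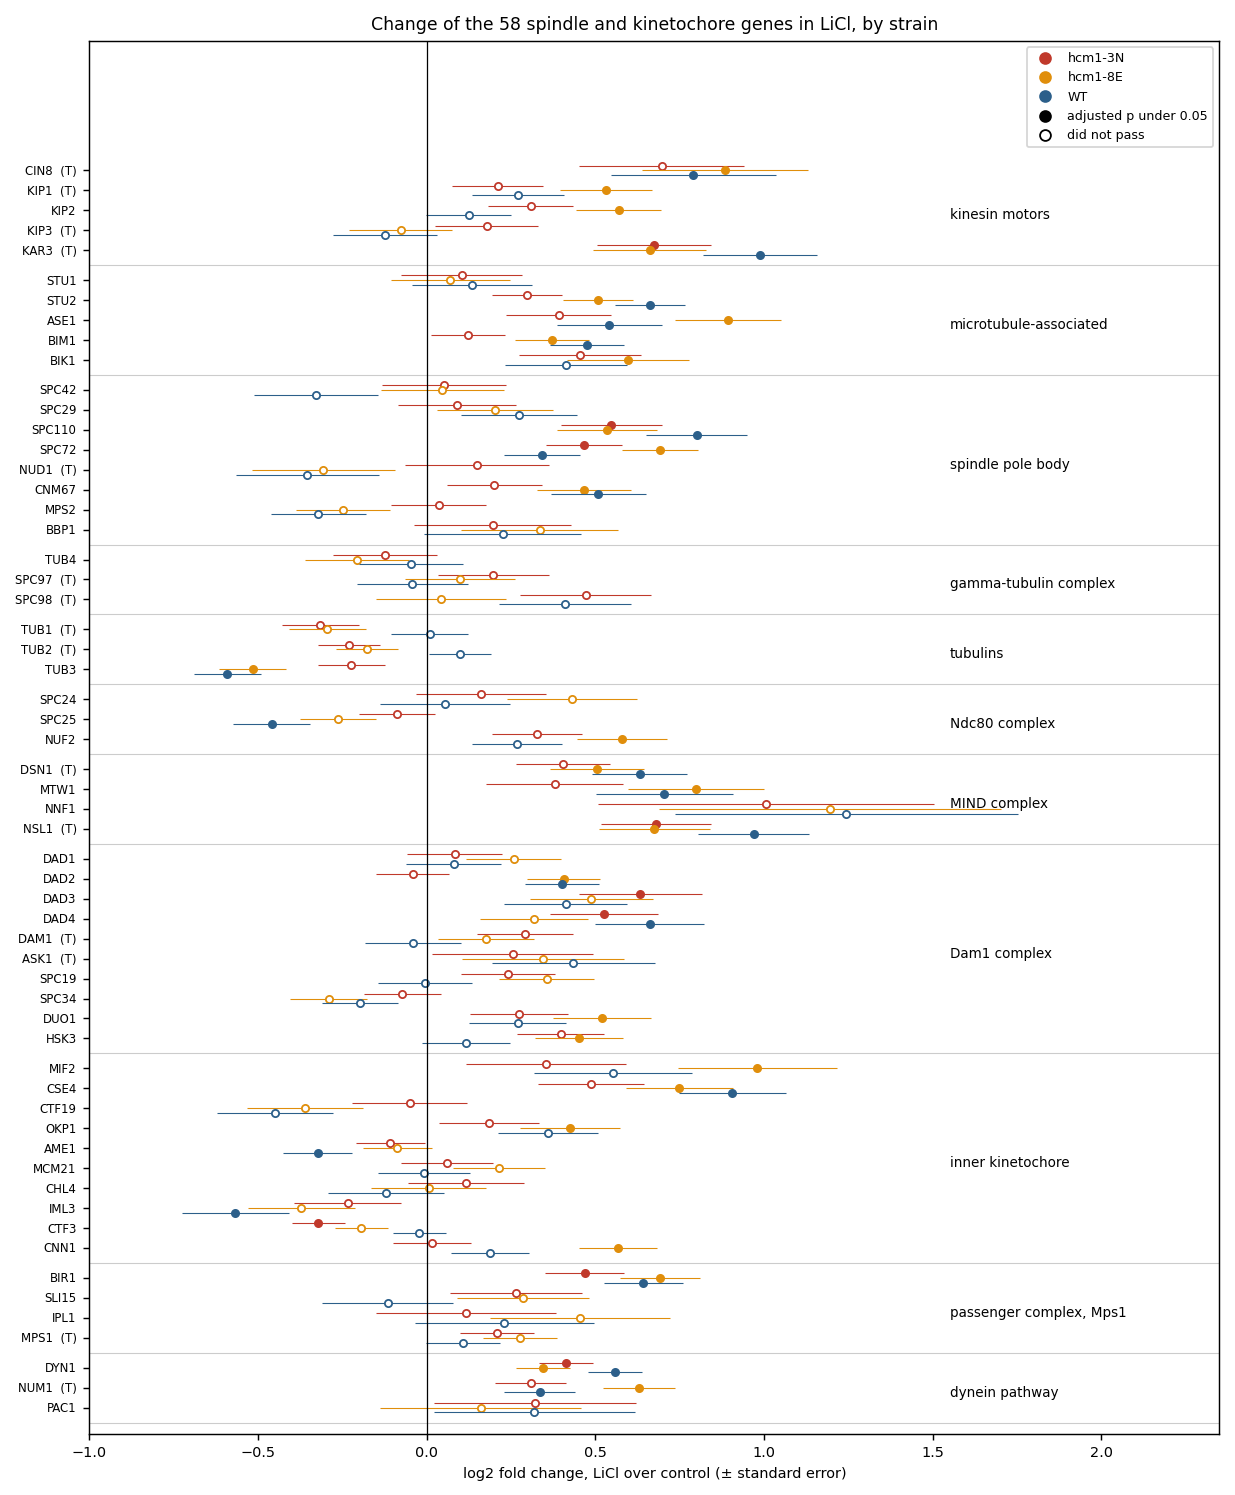
Log2 fold change of each of the 58 genes in LiCl over control medium (x axis, ± standard error) in *hcm1-3N*, *hcm1-8E* and WT, grouped by role; filled points passed edgeR's test at an adjusted p under 0.05, and (T) marks the 15 listed Hcm1 targets. Points lie mostly to the right of 0, with *TUB3* to the left in all 3 strains and the 4 MIND complex genes to the right in all 3.

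Among the kinesins, *CIN8* and *KAR3* responded most. *KAR3* encodes a minus-end-directed motor that crosslinks spindle microtubules. *KAR3* had 15.8, 11.7 and 10.5 CPM in LiCl against 9.55, 7.11 and 7.18 CPM in control medium in *hcm1-3N*, 13.3, 13.8 and 10.99 CPM in LiCl against 7.79, 7.96 and 8.37 CPM in control medium in *hcm1-8E* and 14.9, 12.3 and 12.7 CPM in LiCl against 7.73, 6.02 and 6.37 CPM in control medium in WT. All LiCl libraries lay above all control libraries of their strain, and the log2 fold change was 0.67 ± 0.17 in *hcm1-3N* (adjusted p = 0.0233), 0.66 ± 0.17 in *hcm1-8E* (adjusted p = 0.00948) and 0.99 ± 0.17 in WT (adjusted p = 0.000731). *CIN8* encodes one of a pair of related motors that slide spindle poles apart. *CIN8* had 34.2, 23.3 and 18.9 CPM in LiCl against 19.3, 14.4 and 13.4 CPM in control medium in *hcm1-3N*, 31.6, 19.95 and 28.1 CPM in LiCl against 16.7, 12.3 and 14.2 CPM in control medium in *hcm1-8E* and 28.4, 18.99 and 20.1 CPM in LiCl against 14.9, 13.5 and 10.6 CPM in control medium in WT. In *hcm1-8E* and WT the groups did not overlap and the gene rose, with log2 fold changes of 0.88 ± 0.24 (adjusted p = 0.015) and 0.79 ± 0.25 (adjusted p = 0.0248). In *hcm1-3N* the lowest LiCl library fell just under the highest control library, and the value of 0.70 ± 0.24 passed only with the replicate block (adjusted p = 0.00147, 0.0742 without it). *KIP1* had 25.2, 20.97 and 17.5 CPM in LiCl against 20.1, 18.4 and 16.5 CPM in control medium in *hcm1-3N*, 19.97, 25.97 and 26.03 CPM in LiCl against 17.6, 16.5 and 15.7 CPM in control medium in *hcm1-8E* and 20.2, 22.4 and 20.3 CPM in LiCl against 18.5, 17.2 and 16.4 CPM in control medium in WT. *KIP1*, which encodes the partner of Cin8 in spindle elongation, rose in *hcm1-8E* by 0.53 ± 0.14 on the log2 scale (adjusted p = 0.00974). Its values of 0.21 in *hcm1-3N* and 0.27 in WT did not pass. *CIN8* and *KIP1* share 70.1% identity over 318 bases. *KIP3* had 45.1, 32.5 and 27.1 CPM in LiCl against 31.6, 31.6 and 29.3 CPM in control medium in *hcm1-3N*, 32.3, 26.6 and 26.9 CPM in LiCl against 31.3, 28.04 and 31.3 CPM in control medium in *hcm1-8E* and 31.6, 25.6 and 25.5 CPM in LiCl against 30.04, 32.3 and 27.8 CPM in control medium in WT. *KIP3*, a motor that shortens microtubules, overlapped between media in every strain and passed in none. *KIP2*, which carries cargo along cytoplasmic microtubules, rose in *hcm1-8E* alone by this test (0.57 ± 0.13, adjusted p = 0.0045), with 0.31 in *hcm1-3N* and 0.12 in WT. Its difference between the *hcm1-8E* and WT responses did not pass (log2 0.44 ± 0.18, adjusted p = 0.416).

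Of the 5 other microtubule-associated proteins, 0 passed in *hcm1-3N*, 4 rose in *hcm1-8E* and 3 rose in WT. Of all genes, 10.3% passed in *hcm1-3N*, 17.1% rose in *hcm1-8E* and 16.5% rose in WT. *ASE1* encodes the bundling protein of the spindle midzone. *ASE1* had 37.2, 27.3 and 22.4 CPM in LiCl against 23.9, 23.1 and 19.1 CPM in control medium in *hcm1-3N*, 33.2, 34.6 and 30.6 CPM in LiCl against 17.7, 18.9 and 16.4 CPM in control medium in *hcm1-8E* and 38.6, 30.02 and 31.9 CPM in LiCl against 22.6, 23.5 and 22.9 CPM in control medium in WT. It rose in *hcm1-8E* and WT, where all LiCl libraries were above all control libraries, by 0.89 ± 0.16, adjusted p = 0.00101 and by 0.54 ± 0.15, adjusted p = 0.0164. In *hcm1-3N* LiCl replicate 3 lay within the control range, and 0.39 ± 0.15 passed only with the block (adjusted p = 0.0232). *STU2*, the microtubule polymerase, was higher in each LiCl library than in any control library of its strain. It rose by 0.51 ± 0.10 on the log2 scale in *hcm1-8E* and 0.66 ± 0.10 in WT, and stood at 0.30 ± 0.10 in *hcm1-3N* (adjusted p = 0.0712, 0.03 with the block). *BIM1*, which tracks growing plus ends, rose in *hcm1-8E* (0.37) and WT (0.47). *BIK1*, the yeast CLIP-170, rose in *hcm1-8E* (0.60), and with the block also in *hcm1-3N* (0.45, adjusted p = 0.00273) and WT (0.41, adjusted p = 0.0034). *STU1* had the values 0.10, 0.070 and 0.13 in *hcm1-3N*, *hcm1-8E* and WT and passed in none.

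At the spindle pole body, genes of both microtubule anchors rose. *SPC110* encodes the nuclear anchor of the gamma-tubulin complex. *SPC110* had 23.2, 20.2 and 19.8 CPM in LiCl against 17.8, 13.7 and 11.7 CPM in control medium in *hcm1-3N*, 19.3, 21.1 and 23.96 CPM in LiCl against 15.6, 15.3 and 13.5 CPM in control medium in *hcm1-8E* and 21.2, 18.1 and 20.4 CPM in LiCl against 13.1, 10.04 and 11.1 CPM in control medium in WT. LiCl and control libraries did not overlap in any strain, and the log2 fold change was 0.55 ± 0.15 in *hcm1-3N* (adjusted p = 0.0335), 0.54 ± 0.15 in *hcm1-8E* (adjusted p = 0.0155) and 0.80 ± 0.15 in WT (adjusted p = 0.00136). *SPC72*, the cytoplasmic anchor, rose by 0.47 ± 0.11, 0.69 ± 0.11 and 0.34 ± 0.11 in *hcm1-3N*, *hcm1-8E* and WT (adjusted p = 0.0208, 0.000673 and 0.0329). *CNM67*, which links the outer plaque to the core, rose in *hcm1-8E* (0.47) and WT (0.51). The core and scaffold genes *SPC42*, *SPC29* and *NUD1* passed in no strain without the block. *SPC42* stood at 0.051, 0.047 and -0.33 and *SPC29* at 0.091, 0.20 and 0.27 in *hcm1-3N*, *hcm1-8E* and WT. *SPC29* was higher in LiCl in 8 of 9 same-numbered pairs. In WT its LiCl libraries, at 5.61, 5.68 and 5.88 CPM, lay above its control libraries, at 4.92, 4.58 and 4.72 CPM. In both mutants its media overlapped. *NUD1* had 32.4, 19.6 and 24.7 CPM in LiCl against 28.8, 21.2 and 19.1 CPM in control medium in *hcm1-3N*, 28.1, 21.3 and 17.5 CPM in LiCl against 27.997, 29.8 and 24.9 CPM in control medium in *hcm1-8E* and 24.5, 17.4 and 18.1 CPM in LiCl against 27.7, 23.6 and 25.4 CPM in control medium in WT. *NUD1*, a listed target and the scaffold of the mitotic exit network at the pole, overlapped between media in all 3 strains. Its fold changes were 0.15 ± 0.21 in *hcm1-3N*, -0.31 ± 0.21 in *hcm1-8E* and -0.35 ± 0.21 in WT, and the last 2 passed as decreases only with the block (adjusted p = 0.0482 and 0.0308). Only with the block, *MPS2*, which inserts the pole body into the nuclear envelope, and *SPC42* passed as decreases in WT (adjusted p = 0.0317 and 0.0356) and *BBP1*, a partner of Mps2 in that step, passed as an increase in *hcm1-8E* (adjusted p = 0.0369).

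None of the 3 gamma-tubulin complex genes passed the test in LiCl in any strain, where 57.9% of all genes passed in none. *SPC98* had 29.9, 19.5 and 26.9 CPM in LiCl against 22.7, 16.4 and 15.95 CPM in control medium in *hcm1-3N*, 27.005, 21.4 and 19.96 CPM in LiCl against 24.03, 21.2 and 21.1 CPM in control medium in *hcm1-8E* and 24.8, 17.03 and 21.7 CPM in LiCl against 18.8, 14.5 and 14.5 CPM in control medium in WT. *SPC97* had 19.6, 13.8 and 12.99 CPM in LiCl against 13.6, 14.5 and 12.3 CPM in control medium in *hcm1-3N*, 18.1, 15.3 and 15.7 CPM in LiCl against 14.3, 15.4 and 16.2 CPM in control medium in *hcm1-8E* and 18.7, 12.3 and 14.3 CPM in LiCl against 16.3, 14.8 and 15.4 CPM in control medium in WT. *TUB4* had 37.1, 31.3 and 37.8 CPM in LiCl against 45.1, 35.3 and 35.3 CPM in control medium in *hcm1-3N*, 43.04, 32.1 and 32.1 CPM in LiCl against 44.2, 40.2 and 39.3 CPM in control medium in *hcm1-8E* and 42.2, 31.1 and 33.6 CPM in LiCl against 41.3, 32.04 and 37.1 CPM in control medium in WT. *SPC98* and *SPC97* encode the proteins that hold gamma-tubulin, which *TUB4* encodes, and all 3 overlapped between media in every strain. With the replicate block *SPC98* passed in *hcm1-3N* (log2 0.47, adjusted p = 0.00363) and WT (0.41, adjusted p = 0.0066), and stood at 0.043 in *hcm1-8E*. *SPC97* and *TUB4* did not pass with it either.

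Of the tubulins, only *TUB3* passed in LiCl without the block, as a decrease. *TUB3* had 175, 154 and 141 CPM in LiCl against 177, 187 and 186 CPM in control medium in *hcm1-3N*, 173, 144 and 136 CPM in LiCl against 207, 219 and 222 CPM in control medium in *hcm1-8E* and 175, 154 and 152 CPM in LiCl against 236, 243 and 246 CPM in control medium in WT. *TUB3* fell in *hcm1-8E* (-0.52 ± 0.099, adjusted p = 0.00179) and WT (-0.59 ± 0.099, adjusted p = 0.000653), and its LiCl libraries lay below its control libraries in *hcm1-3N* as well, where -0.22 ± 0.099 did not pass (adjusted p = 0.142). *TUB1* had 292, 307 and 412 CPM in LiCl against 393, 419 and 447 CPM in control medium in *hcm1-3N*, 308, 298 and 271 CPM in LiCl against 362, 376 and 336 CPM in control medium in *hcm1-8E* and 320.02, 326 and 286 CPM in LiCl against 291, 311 and 324 CPM in control medium in WT. *TUB2* had 557, 553 and 677 CPM in LiCl against 704, 659 and 732 CPM in control medium in *hcm1-3N*, 591, 524 and 486 CPM in LiCl against 630.2, 594 and 584 CPM in control medium in *hcm1-8E* and 573, 605 and 538 CPM in LiCl against 526, 527 and 548 CPM in control medium in WT. *TUB1* and *TUB2*, both listed targets, did not pass in any strain. *TUB1* gave -0.32 ± 0.11 in *hcm1-3N*, -0.29 ± 0.11 in *hcm1-8E* and 0.0089 ± 0.11 in WT, and with the block passed as a decrease in *hcm1-3N* (adjusted p = 0.0365) and *hcm1-8E* (adjusted p = 0.0422). *TUB2* gave -0.23 ± 0.092 in *hcm1-3N*, -0.18 ± 0.092 in *hcm1-8E* and 0.099 ± 0.092 in WT.

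As a share of both alpha-tubulin messages by TPM, *TUB3* made up 37.6%, 33.5% and 25.7% in LiCl against 31.2%, 30.9% and 29.5% in control medium in *hcm1-3N*. In *hcm1-8E* it made up 36.1%, 32.7% and 33.5% in LiCl against 36.5%, 36.9% and 39.9% in control medium. In WT it made up 35.5%, 32.3% and 34.8% in LiCl against 44.9%, 44.0% and 43.2% in control medium. The share was thus lower in LiCl without overlap in WT and *hcm1-8E* and overlapped in *hcm1-3N*, where the control share was the lowest of the 3 strains. Between strains in control medium the shares did not overlap, with 30.5 ± 0.92% in *hcm1-3N* and 37.8 ± 1.85% in *hcm1-8E* against 44.1 ± 0.83% in WT (SD, n = 3 each). An exact two-sided permutation test gave p = 0.1 for each of these non-overlapping pairs. That is the smallest p this test allows with 3 against 3. It cannot pass 0.05, so it cannot decide whether the shares differ. In LiCl the means were 32.3 ± 6.06% in *hcm1-3N*, 34.1 ± 1.76% in *hcm1-8E* and 34.2 ± 1.69% in WT, with exact permutation p of 0.8 for *hcm1-3N* over WT and 1 for *hcm1-8E* over WT. *TUB1* and *TUB3* share 80.8% identity over 1333 bases, and no member shared 95% identity over 100 bases or more with another gene. *TUB3* overlaps a noncoding RNA on the opposite strand by 120 bases, which matters if counting ignored strand.

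**Figure D2:**
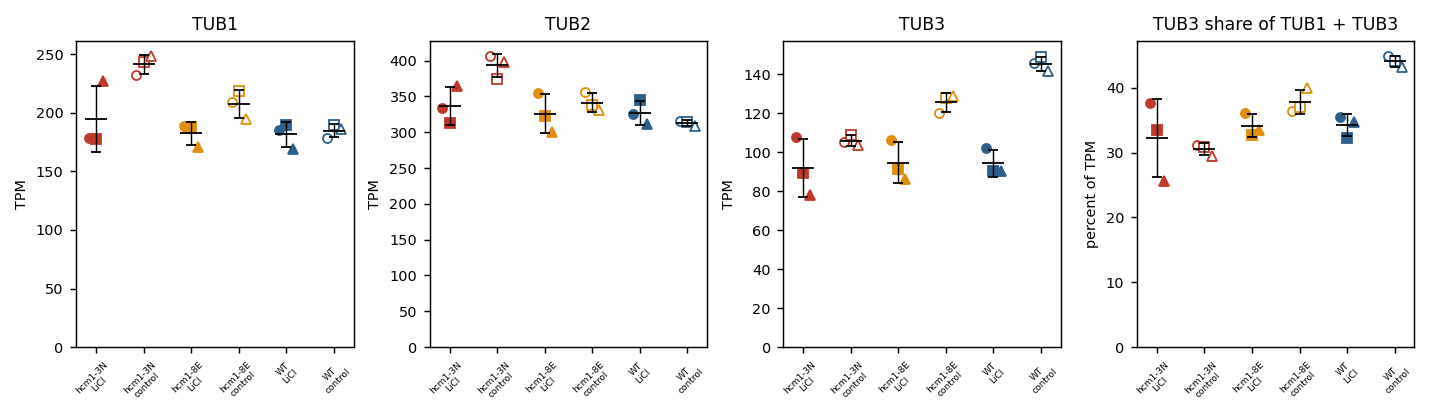
Levels of *TUB1*, *TUB2* and *TUB3* in TPM and the share of *TUB3* in the sum of *TUB1* and *TUB3* (percent) in each library, by strain and medium, with mean ± SD of 3 replicates. In control medium *TUB1* and *TUB2* are highest in *hcm1-3N* and *TUB3* is highest in WT, and the WT control share of *TUB3* (43.2% to 44.9%) lies above all other libraries.

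The MIND complex, the hub that joins centromere-bound proteins to the microtubule-binding Ndc80 and Knl1 complexes, had positive fold changes for its 4 genes in all 3 strains. *NSL1* had 33.2, 34.2 and 25.4 CPM in LiCl against 21.6, 16.1 and 20.3 CPM in control medium in *hcm1-3N*, 27.9, 21.9 and 23.9 CPM in LiCl against 16.7, 13.4 and 16.04 CPM in control medium in *hcm1-8E* and 29.5, 25.5 and 26.9 CPM in LiCl against 17.2, 12.2 and 12.4 CPM in control medium in WT. *NSL1* rose in all 3 strains without overlap, by 0.68 ± 0.16 in *hcm1-3N* (adjusted p = 0.0198), 0.68 ± 0.16 in *hcm1-8E* (adjusted p = 0.00743) and 0.97 ± 0.16 in WT (adjusted p = 0.000695). *DSN1* had 38.1, 33.9 and 26.9 CPM in LiCl against 26.8, 23.5 and 24.4 CPM in control medium in *hcm1-3N*, 35.3, 25.7 and 30.5 CPM in LiCl against 21.8, 20.5 and 22.1 CPM in control medium in *hcm1-8E* and 30.2, 23.9 and 30.2 CPM in LiCl against 16.9, 19.1 and 18.4 CPM in control medium in WT. *DSN1* had higher LiCl than control values in every pair of groups and rose in *hcm1-8E* (0.51 ± 0.14, adjusted p = 0.0148) and WT (0.63 ± 0.14, adjusted p = 0.00406), while in *hcm1-3N* 0.41 ± 0.14 passed only with the block (adjusted p = 0.0169). *MTW1* had 10.1, 7.35 and 5.15 CPM in LiCl against 5.99, 5.17 and 6.21 CPM in control medium in *hcm1-3N*, 11.02, 9.82 and 9.28 CPM in LiCl against 6.99, 5.01 and 5.299 CPM in control medium in *hcm1-8E* and 9.46, 8.75 and 8.12 CPM in LiCl against 5.68, 5.84 and 4.63 CPM in control medium in WT. *MTW1* rose in *hcm1-8E* (0.80 ± 0.20, adjusted p = 0.00924) and WT (0.71 ± 0.20, adjusted p = 0.0168), and in *hcm1-3N*, where LiCl replicate 3 was the lowest of the 6 libraries, stood at 0.38 ± 0.20 (adjusted p = 0.215). *NNF1* had 26.98, 11.9 and 10.1 CPM in LiCl against 10.9, 6.35 and 7.18 CPM in control medium in *hcm1-3N*, 20.3, 7.698 and 9.01 CPM in LiCl against 7.22, 4.29 and 4.64 CPM in control medium in *hcm1-8E* and 19.9, 7.72 and 8.62 CPM in LiCl against 7.96, 3.596 and 3.73 CPM in control medium in WT. *NNF1* had the largest fold changes of all 58, 1.01 ± 0.50 in *hcm1-3N*, 1.20 ± 0.51 in *hcm1-8E* and 1.24 ± 0.51 in WT, yet failed the test without the block (adjusted p = 0.182, 0.0908 and 0.0774) and replicate 1 was highest in every group. With the replicate block it passed in all 3 strains (adjusted p = 0.00026, 4.27e-05 and 1.72e-05), and also when replicate 1 was left out (0.00272, 0.000428 and 7.16e-05).

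The Ndc80 complex binds microtubules directly, and its 3 listed genes did not move together. *NUF2* rose in *hcm1-8E* (0.58 ± 0.13, adjusted p = 0.00548), with 0.33 in *hcm1-3N* and 0.27 in WT. *SPC25* had 14.9, 14.5 and 16.4 CPM in LiCl against 15.4, 17.4 and 15.9 CPM in control medium in *hcm1-3N*, 16.9, 12.5 and 14.95 CPM in LiCl against 17.5, 19.1 and 16.6 CPM in control medium in *hcm1-8E* and 12.5, 12.4 and 12.3 CPM in LiCl against 16.6, 18.9 and 15.7 CPM in control medium in WT. *SPC25* fell in WT (-0.46 ± 0.11, adjusted p = 0.0075), where all LiCl libraries were below all control libraries, and overlapped in both mutants. *SPC24*, its partner in the globular end of the complex, was at 0.16 ± 0.19 in *hcm1-3N*, 0.43 ± 0.19 in *hcm1-8E* and 0.054 ± 0.19 in WT, and passed only in *hcm1-8E* with the block (adjusted p = 0.0193).

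In the Dam1 complex 2 of 10 genes rose in *hcm1-3N*, 3 in *hcm1-8E* and 2 in WT, and none fell. Of all genes, 5.16%, 17.1% and 16.5% rose and 5.18%, 12.5% and 13.9% fell in the same order. With 10 genes these counts are not read as a trait of the complex. *DAD3* had 31.3, 24.1 and 22.1 CPM in LiCl against 17.2, 16.3 and 16.5 CPM in control medium in *hcm1-3N*, 23.8, 17.03 and 17.5 CPM in LiCl against 15.8, 11.97 and 13.8 CPM in control medium in *hcm1-8E* and 25.5, 19.1 and 17.6 CPM in LiCl against 17.6, 16.2 and 12.9 CPM in control medium in WT. *DAD4* had 37.8, 32.7 and 31.7 CPM in LiCl against 25.4, 23.4 and 22.2 CPM in control medium in *hcm1-3N*, 29.5, 22.1 and 23.8 CPM in LiCl against 24.9, 16.6 and 18.97 CPM in control medium in *hcm1-8E* and 36.1, 29.4 and 24.8 CPM in LiCl against 19.5, 18.3 and 19.4 CPM in control medium in WT. *DAD3* and *DAD4*, small subunits of the ring, rose in *hcm1-3N* by 0.63 ± 0.18, adjusted p = 0.0413 and by 0.53 ± 0.16, adjusted p = 0.0495. *DAD4* also rose in WT (0.66 ± 0.16, adjusted p = 0.00688), and both genes passed with the block in the other groups (adjusted p = 0.0022 and 0.00654 for *DAD3* in *hcm1-8E* and WT, 0.0191 for *DAD4* in *hcm1-8E*). *DAD2* rose in *hcm1-8E* (0.41) and WT (0.40) and stood at -0.042 in *hcm1-3N*, and *DUO1* (0.52) and *HSK3* (0.45) rose in *hcm1-8E*. With the block *HSK3* also passed in *hcm1-3N* (0.40, adjusted p = 0.0102), *DUO1* in WT (0.27, adjusted p = 0.0476) and *SPC19* in *hcm1-8E* (0.36, adjusted p = 0.0334). *DAM1* had 46.4, 35.95 and 29.2 CPM in LiCl against 32.8, 29.6 and 28.7 CPM in control medium in *hcm1-3N*, 30.2, 28.98 and 33.6 CPM in LiCl against 29.9, 24.8 and 27.5 CPM in control medium in *hcm1-8E* and 30.2, 25.4 and 28.2 CPM in LiCl against 29.01, 31.1 and 26.1 CPM in control medium in WT. *ASK1* had 34.03, 22.8 and 16.5 CPM in LiCl against 22.6, 18.2 and 20.9 CPM in control medium in *hcm1-3N*, 28.5, 17.3 and 22.8 CPM in LiCl against 21.01, 15.8 and 17.2 CPM in control medium in *hcm1-8E* and 24.3, 20.1 and 21.3 CPM in LiCl against 19.8, 12.9 and 15.8 CPM in control medium in WT. *DAM1* and *ASK1*, the 2 listed targets in the complex, did not pass in any strain, though the *ASK1* groups were apart in WT and passed there with the block (log2 0.44, adjusted p = 0.0178). *SPC34* was the one gene of the complex with negative values in all 3 strains, -0.073 ± 0.11 in *hcm1-3N*, -0.29 ± 0.11 in *hcm1-8E* and -0.20 ± 0.11 in WT, and passed only in *hcm1-8E* with the block (adjusted p = 0.0115).

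The inner kinetochore genes did not move in one direction. *CSE4* encodes the centromeric histone H3 variant. *CSE4* had 31.4, 23.97 and 21.02 CPM in LiCl against 18.6, 16.02 and 19.9 CPM in control medium in *hcm1-3N*, 25.3, 22.7 and 21.99 CPM in LiCl against 15.9, 12.2 and 13.5 CPM in control medium in *hcm1-8E* and 29.2, 23.1 and 24.6 CPM in LiCl against 13.8, 15.3 and 11.9 CPM in control medium in WT. It rose without overlap in *hcm1-8E* (0.75 ± 0.16, adjusted p = 0.00318) and WT (0.91 ± 0.16, adjusted p = 0.000818), and in *hcm1-3N*, also without overlap, 0.49 ± 0.16 passed with the block (adjusted p = 0.00703, 0.058 without it). *MIF2*, the yeast CENP-C, binds that histone. *MIF2* had 10.4, 5.99 and 7.02 CPM in LiCl against 7.03, 5.403 and 5.87 CPM in control medium in *hcm1-3N*, 13.1, 12.1 and 9.19 CPM in LiCl against 6.14, 6.29 and 4.97 CPM in control medium in *hcm1-8E* and 14.6, 8.47 and 8.71 CPM in LiCl against 7.73, 6.68 and 7.27 CPM in control medium in WT. *MIF2* rose in *hcm1-8E* (0.98 ± 0.24, adjusted p = 0.00708), and in WT 0.55 ± 0.23 passed with the block (adjusted p = 0.0128). In *hcm1-3N* LiCl replicates 2 and 3 lay within the control range, and 0.35 ± 0.24 did not pass. Genes of the Ctf19 complex, the layer around them, included both directions. *IML3* had 11.7, 15.1 and 14.1 CPM in LiCl against 14.4, 18.5 and 15.3 CPM in control medium in *hcm1-3N*, 11.96, 15.1 and 18.2 CPM in LiCl against 19.6, 18.4 and 20.6 CPM in control medium in *hcm1-8E* and 13.2, 17.3 and 13.4 CPM in LiCl against 20.2, 23.2 and 21.6 CPM in control medium in WT. *IML3* fell in WT (-0.57 ± 0.16, adjusted p = 0.0146), was apart in *hcm1-8E* at -0.37 ± 0.16 (adjusted p = 0.0915, 0.0186 with the block) and overlapped in *hcm1-3N*. *AME1* had 30.5, 30.9 and 25.5 CPM in LiCl against 32.7, 31.8 and 29.003 CPM in control medium in *hcm1-3N*, 28.04, 30.6 and 33.5 CPM in LiCl against 35.8, 29.7 and 32.3 CPM in control medium in *hcm1-8E* and 26.8, 28.8 and 30.1 CPM in LiCl against 36.7, 36.8 and 33.8 CPM in control medium in WT. *AME1*, one of the essential members of the complex, fell in WT (-0.32 ± 0.10, adjusted p = 0.027). *CTF3* had 22.99, 22.3 and 26.5 CPM in LiCl against 30.03, 30.3 and 29.3 CPM in control medium in *hcm1-3N*, 25.1, 24.6 and 25.1 CPM in LiCl against 28.2, 30.3 and 27.1 CPM in control medium in *hcm1-8E* and 25.5, 26.6 and 26.6 CPM in LiCl against 27.3, 27.3 and 25.3 CPM in control medium in WT. *CTF3* fell in *hcm1-3N* (-0.32 ± 0.079, adjusted p = 0.022) and stood at -0.19 in *hcm1-8E*, where the groups were apart, and -0.022 in WT. *CTF19* was at -0.050 ± 0.17 in *hcm1-3N*, -0.36 ± 0.17 in *hcm1-8E* and -0.45 ± 0.17 in WT and passed as a decrease with the block in the last 2 (adjusted p = 0.00627 and 0.0018), with 27 bases of overlap with *IRC15* on the opposite strand. In the other direction, *OKP1*, the partner of Ame1, rose in *hcm1-8E* (0.43, with overlap), as did *CNN1* (0.57), which recruits Ndc80. *OKP1* passed in WT only with the block (0.36, adjusted p = 0.0465). *MCM21* and *CHL4* passed in none, with or without the block.

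*BIR1*, the survivin of the passenger complex, rose in all 3 strains, and the kinase and its activator did not. *BIR1* had 34.2, 29.8 and 25.01 CPM in LiCl against 23.2, 19.2 and 21.8 CPM in control medium in *hcm1-3N*, 31.6, 28.1 and 28.1 CPM in LiCl against 18.8, 16.6 and 18.9 CPM in control medium in *hcm1-8E* and 32.3, 28.5 and 29.3 CPM in LiCl against 20.96, 18.7 and 18.1 CPM in control medium in WT. The groups did not overlap in any strain, with fold changes of 0.47 ± 0.12 in *hcm1-3N* (adjusted p = 0.0233), 0.69 ± 0.12 in *hcm1-8E* (adjusted p = 0.000833) and 0.64 ± 0.12 in WT (adjusted p = 0.00114). *SLI15*, the INCENP homologue, was at 0.26 ± 0.20 in *hcm1-3N*, 0.29 ± 0.20 in *hcm1-8E* and -0.12 ± 0.19 in WT, and *IPL1* at 0.12 ± 0.27 in *hcm1-3N*, 0.46 ± 0.27 in *hcm1-8E* and 0.23 ± 0.27 in WT, with or without the block short of the threshold. *MPS1* had 39.1, 33.1 and 28.4 CPM in LiCl against 30.5, 29.1 and 27.6 CPM in control medium in *hcm1-3N*, 34.4, 31.2 and 34.7 CPM in LiCl against 29.9, 25.3 and 27.7 CPM in control medium in *hcm1-8E* and 33.2, 31.04 and 30.8 CPM in LiCl against 29.5, 31.6 and 26.998 CPM in control medium in WT. *MPS1*, the checkpoint kinase on the target list, was apart in *hcm1-8E*, where 0.28 ± 0.11 passed only with the block (adjusted p = 0.0251), and overlapped in the other strains.

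*DYN1*, the dynein heavy chain, had the smallest standard errors of the 6 members that rose in all 3 strains. *DYN1* had 71.7, 65.6 and 72.2 CPM in LiCl against 54.6, 48.6 and 54.02 CPM in control medium in *hcm1-3N*, 60.3, 52.5 and 58.9 CPM in LiCl against 45.9, 46.3 and 42.9 CPM in control medium in *hcm1-8E* and 59.5, 60.2 and 63.9 CPM in LiCl against 42.7, 40.1 and 41.8 CPM in control medium in WT. No LiCl library reached down to a control library of its strain, and the fold changes were 0.41 ± 0.080 in *hcm1-3N* (adjusted p = 0.00848), 0.34 ± 0.080 in *hcm1-8E* (adjusted p = 0.00564) and 0.56 ± 0.080 in WT (adjusted p = 0.000237). *NUM1* had 87.9, 88.97 and 69.3 CPM in LiCl against 70.99, 61.8 and 66.04 CPM in control medium in *hcm1-3N*, 83.7, 88.9 and 84.2 CPM in LiCl against 60.5, 49.5 and 56.2 CPM in control medium in *hcm1-8E* and 73.3, 70.1 and 78.4 CPM in LiCl against 59.5, 61.4 and 54.8 CPM in control medium in WT. *NUM1*, the cortical anchor of dynein and a listed target, rose in *hcm1-8E* (0.63 ± 0.11, adjusted p = 0.000801) and WT (0.34 ± 0.11, adjusted p = 0.027), and in *hcm1-3N* 0.31 ± 0.11 passed only with the block (adjusted p = 0.0248). *PAC1*, the LIS1 homologue that loads dynein at plus ends, passed only with the block, in *hcm1-3N* (0.0404) and WT (0.0356 as adjusted p).

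**Figure D3:**
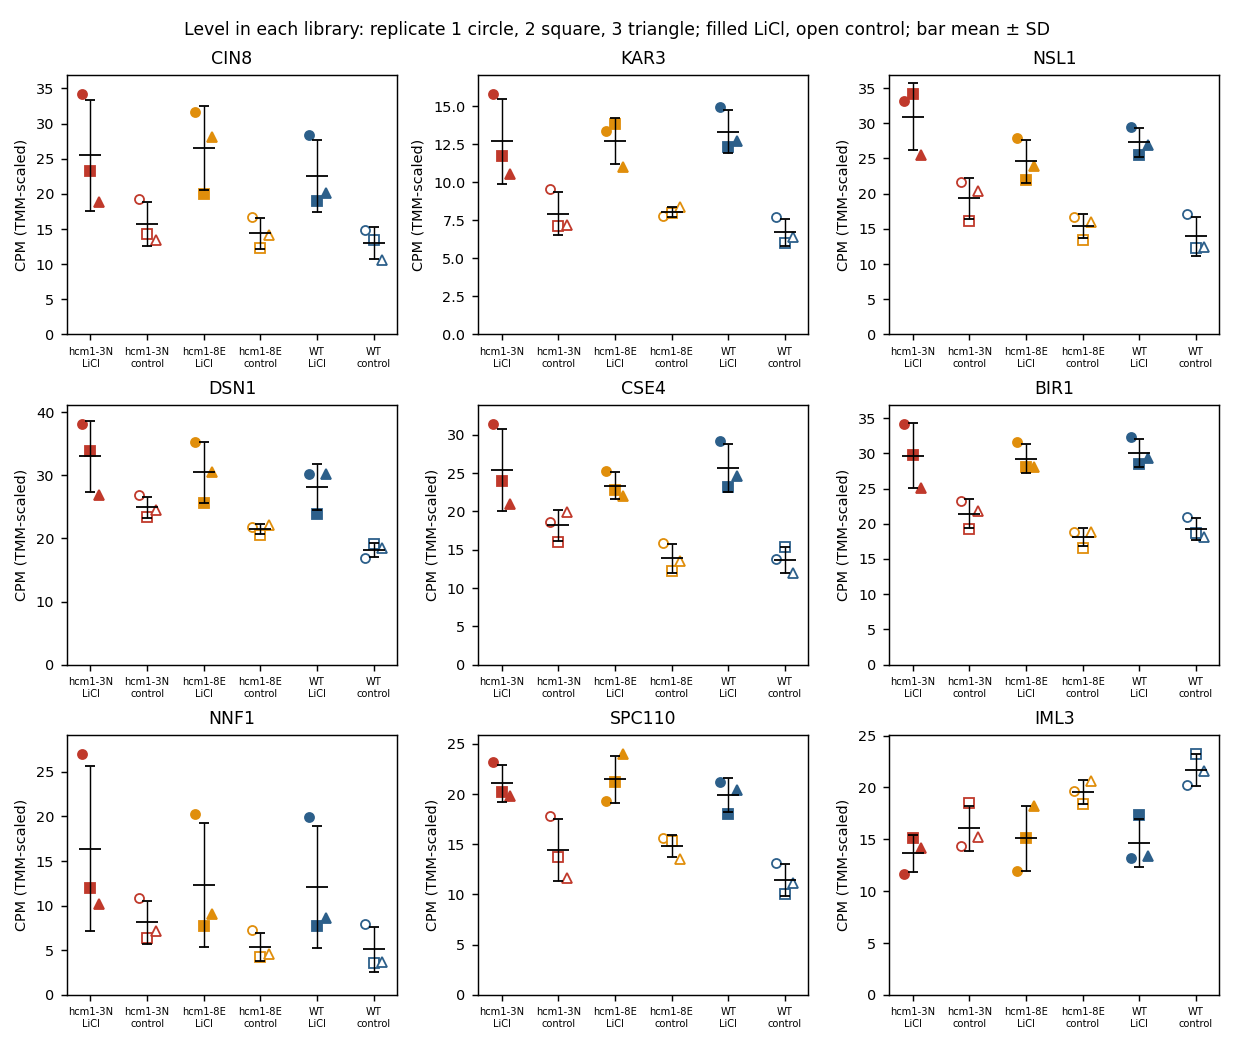
TMM-scaled CPM of 9 members in each of the 18 libraries (y axis from 0), LiCl left of control within each strain, with mean ± SD of 3 replicates and a marker shape per replicate. *KAR3*, *NSL1*, *BIR1* and *SPC110* separate the media in all 3 strains, *NNF1* replicate 1 stands above the others in every group (27.0 CPM in *hcm1-3N* LiCl), and *IML3* runs the other way.

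Listed targets and other members are set side by side for LiCl, with no test between them. Of the 15, 2 rose in *hcm1-3N*, 6 in *hcm1-8E* and 5 in WT, and none fell, with medians of 0.25, 0.28 and 0.27 on the log2 scale. Of the 43 others, 6 rose and 1 fell in *hcm1-3N*, 19 rose and 1 fell in *hcm1-8E*, and 12 rose and 4 fell in WT, with medians of 0.20, 0.37 and 0.23. Of all genes, 5.16%, 17.1% and 16.5% rose and 5.18%, 12.5% and 13.9% fell in *hcm1-3N*, *hcm1-8E* and WT. Members with TAAACAA upstream are given apart from those without. Of the 25 with the motif, 6 rose in *hcm1-3N*, 15 in *hcm1-8E* and 10 in WT, and none fell, with medians of 0.35, 0.51 and 0.36. Of the 33 without it, 2 rose and 1 fell in *hcm1-3N*, 10 rose and 1 fell in *hcm1-8E*, and 7 rose and 4 fell in WT, with medians of 0.10, 0.21 and 0.10. Of 635 other tested genes that had it, 38 rose and 30 fell in *hcm1-3N*, 106 rose and 93 fell in *hcm1-8E*, and 106 rose and 95 fell in WT, with medians of 0.01, 0.05 and -0.01. These counts are a description, and no test was made of motif against response.

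Genes of the same structures outside the 58 were counted in the same way. Of 44 further genes, 7 rose and 0 fell in *hcm1-3N*, where 5.16% and 5.18% of all genes did. In *hcm1-8E* 20 rose and 2 fell, with 17.1% and 12.5% of all genes. In WT 11 rose and 4 fell, with 16.5% and 13.9% of all genes. The medians were 0.19, 0.39 and 0.29 in the same order. The genes named next were picked from these 44 after their values were seen. *SLK19*, a spindle midzone and kinetochore protein, rose by 0.79 in *hcm1-3N*, 0.90 in *hcm1-8E* and 1.14 in WT on the log2 scale. *MAD1*, which anchors the spindle checkpoint, rose by 0.55, 0.75 and 0.84 in the same order, and *JNM1* of dynactin by 0.57, 0.83 and 0.78. *BUB3*, another checkpoint gene, fell by 0.40 in *hcm1-8E* and by 0.55 in WT.

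Lists of 8 genes read at set cell cycle phases were summed too, and not all moved with the medium. G2/M sums were apart between media in every strain, histone and M/G1 sums in *hcm1-8E* and WT only, and G1/S sums in none. Beside the calls below, 5.16%, 17.1% and 16.5% of all genes rose in *hcm1-3N*, *hcm1-8E* and WT. In the same order 5.18%, 12.5% and 13.9% of all genes fell. The summed level of 8 G2/M genes was 379 to 687 CPM in LiCl against 268 to 368 CPM in control medium in *hcm1-3N*, 424 to 506 CPM against 274 to 325 CPM in *hcm1-8E*, and 388 to 526 CPM against 329 to 363 CPM in WT, and 3, 4 and 3 of the 8 rose in the 3 strains, with 1 of them falling in WT. The 8 histone genes of S phase summed to 4624 to 5112 CPM in LiCl against 5003 to 5137 CPM in control medium in *hcm1-3N*, 4010 to 4304 CPM against 5143 to 5601 CPM in *hcm1-8E*, and 4114 to 4202 CPM against 4828 to 5160 CPM in WT, and 0, 5 and 3 of them fell. The 8 M/G1 genes summed to 3642 to 4235 CPM in LiCl against 2998 to 4053 CPM in control medium in *hcm1-3N*, 3521 to 3779 CPM against 2502 to 3371 CPM in *hcm1-8E*, and 3324 to 3750 CPM against 1988 to 2150 CPM in WT. The media were thus apart for this list in *hcm1-8E* and WT and overlapped in *hcm1-3N*, and 0, 2 and 3 of its genes rose, with 1 falling in *hcm1-8E*. The 8 G1/S genes summed to 299 to 467 CPM in LiCl against 226 to 338 CPM in control medium in *hcm1-3N*, 237 to 538 CPM against 309 to 369 CPM in *hcm1-8E*, and 317 to 545 CPM against 279.7 to 353 CPM in WT, overlapping in all 3. Of the G1/S genes, *CLN1* (log2 -0.95, adjusted p = 0.00183) and *CLN2* (log2 -1.27, adjusted p = 0.00861) fell in *hcm1-8E* by edgeR's test. *RNR1* rose in WT (log2 1.70, adjusted p = 0.0164), and no gene of that list passed in *hcm1-3N*. The part of cell cycle distribution in the member values was not tested. The study's comparison of S-phase shares, given above, was made by DNA content and did not use these counts.

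Few members passed between strains. Against WT in control medium, *hcm1-3N* had higher levels of 3 members and a lower level of 1, where 4.23% of all genes were higher and 3.45% were lower (7.68% in all). *TUB1* had 393, 419 and 447 CPM in *hcm1-3N* against 291, 311 and 324 CPM in WT, *TUB2* had 704, 659 and 732 CPM in *hcm1-3N* against 526, 527 and 548 CPM in WT and *DYN1* had 54.6, 48.6 and 54.02 CPM in *hcm1-3N* against 42.7, 40.1 and 41.8 CPM in WT. All *hcm1-3N* libraries lay above all WT libraries for these 3 genes, with log2 fold changes of 0.44 ± 0.11, adjusted p = 0.0293 for *TUB1*, 0.39 ± 0.092, adjusted p = 0.0192 for *TUB2* and 0.34 ± 0.080, adjusted p = 0.0192 for *DYN1*. *TUB3* had 177, 187 and 186 CPM in *hcm1-3N* against 236, 243 and 246 CPM in WT, again without overlap, and fell by 0.40 ± 0.099 (adjusted p = 0.0234). Thus the alpha-tubulin genes moved in opposite directions between these strains. With the replicate block 11 members were higher and 2 lower (11.1% and 11.4% of all genes, 22.5% in all), adding *NNF1* (0.67, adjusted p = 0.00544), *NSL1* (0.47), *DSN1* (0.46), *OKP1* (0.45), *CSE4* (0.41), *DAD2* (0.34), *DAD4* (0.31) and *BIM1* (0.31) above WT and *IML3* (-0.43) below it, and 8 passed without replicate 1 (17.8% of all genes). Without any one of the 6 libraries compared the count was 0 to 2, with 2.64% to 4.87% of all genes: 0 without WT replicate 2 or *hcm1-3N* replicate 3, 1 without WT replicate 1 or 3 or *hcm1-3N* replicate 1, and 2 without *hcm1-3N* replicate 2.

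In *hcm1-8E* none of the 58 passed against WT in control medium, where 0.0641% of all genes were higher and none lower. At an unadjusted p under 0.05 there were 7 members, with 12.5% of all genes, and 0 by DESeq2. *SPC98* had 24.03, 21.2 and 21.1 CPM in *hcm1-8E* against 18.8, 14.5 and 14.5 CPM in WT, without overlap, and passed only with the block (log2 0.47 ± 0.19, adjusted p = 0.0458, 0.327 without it), where 0.737% of all genes were higher and 0.849% lower (1.59% in all). *KIP2* had 19.8, 21.6 and 22.001 CPM in *hcm1-8E* against 25.3, 32.3 and 27.9 CPM in WT, the lowest fold change of the members at -0.43 ± 0.13 (adjusted p = 0.187, 0.045 without replicate 1, where 2.16% of all genes passed). Between the mutants in control medium none passed for *hcm1-3N* over *hcm1-8E*, where 0.0641% of all genes did, with 8 members at an unadjusted p under 0.05 (12.8% of all genes), 0 by DESeq2, 1 with the block (*NNF1*, 0.60, adjusted p = 0.0485, with 3.73% of all genes) and 4 without replicate 1 (11.2% of all genes).

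In LiCl no member passed in *hcm1-3N* over WT, *hcm1-8E* over WT or *hcm1-3N* over *hcm1-8E*, where 0.721%, 0.0321% and 3.06% of all genes did. At an unadjusted p under 0.05 there were 5, 1 and 6 members, with 8.62%, 5.05% and 14.5% of all genes. By DESeq2 there were 0, 0 and 2, with no share of all genes at hand. The largest of the 5 by fold change in *hcm1-3N* over WT was *DAM1*, with 46.4, 35.95 and 29.2 CPM in *hcm1-3N* against 30.2, 25.4 and 28.2 CPM in WT, overlapping, at 0.41 ± 0.14 (adjusted p = 0.261). With the block 5 members passed for *hcm1-3N* over *hcm1-8E*, with 8.49% of all genes: *DAD4* (0.44), *DAD3* (0.41) and *DYN1* (0.29) higher, *MIF2* (-0.55) and *CNN1* (-0.39) lower. *MIF2* had 10.4, 5.99 and 7.02 CPM in *hcm1-3N* against 13.1, 12.1 and 9.19 CPM in *hcm1-8E*, and *hcm1-3N* replicate 1 lay inside the *hcm1-8E* range. Without *hcm1-8E* replicate 1 the count was 1 (5.25% of all genes), and without replicate 1 of all groups it was 6 (13.9%).

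Among the 15 listed targets the median log2 fold change was 0.20 for *hcm1-3N* over WT and 0.14 for *hcm1-8E* over WT in control medium, against -0.02 and -0.04 for the 43 other members. In LiCl it was 0.16 for *hcm1-3N* over WT, 0.11 for *hcm1-8E* over WT and 0.11 for *hcm1-3N* over *hcm1-8E*. The 43 others had 0.02, 0.03 and -0.02 in the same order. The comparisons in one medium share libraries, so these medians do not stand independently of each other. Of single targets, *TUB1* and *TUB2* passed without the block, in *hcm1-3N* over WT in control medium, and with the block *NSL1* and *DSN1* passed there too and *SPC98* in *hcm1-8E* over WT in control medium.

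**Figure D4:**
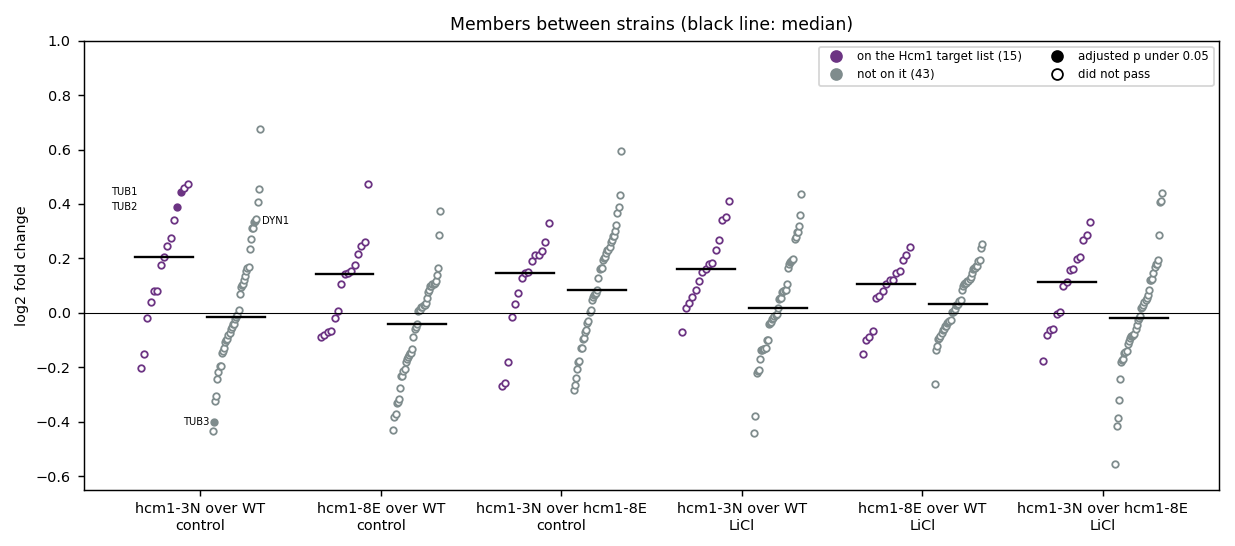
Log2 fold change of the 58 genes between strains in control medium and in LiCl, for the 15 listed Hcm1 targets (left in each pair) and the 43 other members (right), with the median as a black line; filled points passed edgeR's test at an adjusted p under 0.05. The target medians lie above 0 in all 6 comparisons (0.11 to 0.20), and filled points occur only for *hcm1-3N* over WT in control medium, at *TUB1*, *TUB2*, *DYN1* and *TUB3*.

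The response to LiCl itself was not shown to differ between strains for any member. The difference of responses passed for 0 of 58 genes in *hcm1-3N* minus WT, *hcm1-8E* minus WT and *hcm1-3N* minus *hcm1-8E* by edgeR, as for 0 of the 6239 genes. It passed for 0 members by DESeq2 and for 0 with the block, where 0.641%, 0.337% and 0.192% of all genes passed. At an unadjusted p under 0.05 there were 7, 3 and 4 members, with 11.3%, 10.3% and 8.99% of all genes. The smallest p was at *CNN1* for *hcm1-3N* minus *hcm1-8E*, at -0.55 ± 0.16 on the log2 scale (adjusted p = 0.357). *TUB3* gave 0.37 ± 0.14 and *DAD2* -0.44 ± 0.15 for *hcm1-3N* minus WT (adjusted p = 0.306 and 0.267). A difference of this size with 3 replicates a group could be missed, so the counts of 8, 25 and 17 members that rose do not rank the strains.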

How the data were processed

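The deposited files held one table of counts and one of TPM for 18 libraries. The authors aligned paired-end reads of strand-specific polyA libraries to R64-1-1 with a version 2.7.7a aligner, used featureCounts on exon fragments (mapping quality over 20) and deposited the counts per gene without normalization. Whether counting used strand is not given in the sources used here. The deposited TPM are counts per gene length scaled by the authors to a fixed total per library. All 18 libraries were fitted in edgeR 4.0.16 (R 4.3.3) with TMM scaling, filterByExpr by group (6239 of 7126 genes), the robust quasi-likelihood test, 6 group means and Benjamini-Hochberg adjustment over all genes tested; a gene passed at an adjusted p under 0.05, with no minimum fold change. Errors of log2 fold changes are standard errors from the F statistic.

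Alternatives were RLE size factors, no filter, DESeq2 1.42.0, only the compared groups, the replicate number as a block, leaving out each library and leaving out replicate 1. Libraries were paired by the replicate number that the labels give, and this was checked: every same-numbered pair of libraries from different groups correlated above 0.1 (0.24 to 0.89). Differently numbered pairs from different groups ran from -0.85 to 0.70, so the ranges overlap. The mean correlation was 0.52 for same-numbered and -0.22 for differently numbered pairs. The labels do not say that replicates were separate cultures beyond their numbers, while the study calls them biological replicates. Upstream windows and coordinates are from RefSeq R64, in which all 58 genes matched; similar sequences were searched with blastn 2.17.0. The scripts were tested on simulated data. The members and lists were chosen with earlier results of these data known. Per-library values were planned for up to 5 members in each direction that passed with groups apart, the 15 targets and *TUB1* to *TUB4*; the values of *BIR1* and *NNF1*, and the further members and genes named, were chosen after their values were seen. No column was left out.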

Additional observations from a re-analysis of the deposited data

How the results depend on the processing

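The counts of members that passed in *hcm1-3N* LiCl over control were 9 in the fit reported, 15 with DESeq2, 21 with the replicate block and 0 with only the compared groups, and ranged from 0 to 24 when single libraries were left out. For *hcm1-8E* the count was 26, 16 with only the compared groups, 38 with the block and 18 to 27 without single libraries. For WT it was 21, 34 with the block and 13 to 20 without single libraries. For *hcm1-3N* over WT in control medium it was 4, 9 with DESeq2, 13 with the replicate block, 8 without replicate 1 and 0 to 2 without single libraries. Counts of 0 became 1 with the block and 1 without replicate 1 (*hcm1-8E* over WT, control), 1 and 4 (*hcm1-3N* over *hcm1-8E*, control), 5 and 6 (*hcm1-3N* over *hcm1-8E*, LiCl; 2 with DESeq2, 0 to 1 without single libraries) and, for the difference of responses between *hcm1-3N* and *hcm1-8E*, 1 without replicate 1. The cause was not tested. For DESeq2 and for fits of only the compared groups, no share of all genes is at hand, so these counts cannot be set against all genes. All other counts stayed within 1.5 times of the value reported, and no named fold change reversed. RLE size factors and no filter changed 3 and 6 named calls. Other settings changed more. With only the compared groups in the fit, 37 calls held and 23 were lost. The replicate block added 53 calls. Over all fits that left out a single library, calls held 247 times and were lost 113 times. Fits that left out a library assume that the remaining libraries vary alike. The lowest member count in a library was 52, and counting error was not compared with the spread between replicates.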
